A study of Mus musculus with 188 samples.

Results

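The 8 genes described here set how readily membrane lipids are destroyed by iron-driven peroxidation, the chemistry behind the form of cell death called ferroptosis. They are Gpx4, Aifm2, Dhodh, Gch1, Acsl4, Lpcat3, Acsl3 and Sat1, and they were taken by name, each from the 1 Ensembl identifier that carries its symbol. The count lists held 25655 genes in batch 1 and 25528 in batches 2 and 3, with 25472 in both. All 8 genes were in both lists and passed the filter on low counts in both fits.

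Ferroptosis begins when phospholipids with polyunsaturated fatty acids are oxidised in the presence of iron and the lipid hydroperoxides are not cleared. Gpx4 encodes the glutathione-dependent selenoenzyme that reduces these hydroperoxides within membranes, and 3 further systems supply lipid radical traps: Aifm2 (also called FSP1) reduces ubiquinone at the plasma membrane, Dhodh reduces ubiquinone in the inner mitochondrial membrane as it makes pyrimidines, and Gch1 starts the synthesis of tetrahydrobiopterin. On the substrate side, Acsl4 activates arachidonic and adrenic acid to their CoA esters, Lpcat3 inserts such acyl chains into lysophospholipids, and Acsl3 activates monounsaturated fatty acids, which make membranes harder to oxidise. Sat1 acetylates spermidine and spermine and is a target of p53 that has been tied to lipoxygenase-dependent ferroptosis. The hemoglobin (Hb) and heme released by red blood cells after a brain hemorrhage bring iron into the tissue, and haptoglobin (Hp) and hemopexin (Hpx) are the plasma proteins that bind them.

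Bulk mRNA was sequenced from coronal brain slice cultures, 150 μm thick, of wild-type C57BL/6J mice of either sex aged 6 to 8 weeks, which were treated on day 7 of culture. Batch 1 held 6 groups of 10 libraries at 24 h: vehicle control, heme-albumin (heme carried by albumin) at 12.5, 50, 200 and 400 μM, and heme bound to Hpx (hemeHpx) at 200 μM. Batches 2 and 3 held controls (n = 10 at 24 h and 9 at 48 h), Hb at 200 and 400 μM (n = 10 in each of 4 groups), the Hb-Hp complex (HbHp) at 200 μM (n = 8 at each time) and 400 μM (n = 4 at 24 h and 5 at 48 h), and Hp alone at 400 μM (n = 12 at 24 h and 11 at 48 h). The titles of the hemeHpx libraries name haptoglobin while their treatment tags and library names give hemopexin, which was followed. The labels do not say which libraries came from separate mice, so every p-value measures the spread between libraries, which may in part be technical. Slices hold a mixture of cell types, and fewer cells of a type cannot be told apart from less RNA per cell.

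Total counts ran from 11038484 to 44199060 per library in batch 1 and from 15587938 to 54174784 in batches 2 and 3, and the 8 genes had between 51 (Gch1) and 13429 counts (Gpx4). The library names divide batches 2 and 3 into experiments E1 and E2, whose meaning the labels do not give. All HbHp libraries were from batch 3 and E2, whereas of the controls 7 of 10 at 24 h and 7 of 9 at 48 h were from E1. Most controls were also from batch 2, and only 1 control library at each time shared both batch 3 and E2 with HbHp. HbHp was therefore compared with control in a model with a term for batch and one for experiment, and its values against control depend on these terms. In the batch 1 controls the 10 neuronal markers had mean levels from 0.587 CPM (read counts relative to library size) for Slc17a7 to 274 CPM for Map2, with 2.76 CPM for Rbfox3, the gene of NeuN. The 10 markers each of astrocytes and oligodendrocytes reached from 94 to 5908 CPM (Fgfr3 and Gfap) and from 57.5 to 9362 CPM (Opalin and Mbp), and none was at 0. A further 21 libraries could not be assigned to a group and enter no comparison.

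The promoters of Gch1, Acsl4, Sat1 and Acsl3, the 4 genes called most often between treatments, are given here so that their sequences can be compared, from 250 bases before to 50 bases after the transcription start (RefSeq, GRCm38.p6, read 5′ to 3′ on the strand of the gene). Gch1 lies on the minus strand at chr14:47189364-47189663, Acsl4 on the minus strand at chrX:142390486-142390785, Sat1 on the minus strand at chrX:155216400-155216699 and Acsl3 on the plus strand at chr1:78657575-78657874. Capitals mark a TGACG half-site of the cyclic AMP response element or a CCAAT box, found by searching both strands.
Gch1: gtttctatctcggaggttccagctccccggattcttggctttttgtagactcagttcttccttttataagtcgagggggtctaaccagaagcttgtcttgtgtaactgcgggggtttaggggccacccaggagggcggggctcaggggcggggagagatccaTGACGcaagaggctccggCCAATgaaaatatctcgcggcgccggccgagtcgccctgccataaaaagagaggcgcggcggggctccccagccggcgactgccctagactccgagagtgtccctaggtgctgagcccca
Acsl4: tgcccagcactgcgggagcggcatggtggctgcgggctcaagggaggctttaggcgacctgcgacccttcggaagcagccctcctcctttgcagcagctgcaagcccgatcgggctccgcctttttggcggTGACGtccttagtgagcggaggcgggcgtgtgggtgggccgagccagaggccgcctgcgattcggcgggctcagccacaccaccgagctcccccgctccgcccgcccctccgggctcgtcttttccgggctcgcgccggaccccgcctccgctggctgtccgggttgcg
Sat1: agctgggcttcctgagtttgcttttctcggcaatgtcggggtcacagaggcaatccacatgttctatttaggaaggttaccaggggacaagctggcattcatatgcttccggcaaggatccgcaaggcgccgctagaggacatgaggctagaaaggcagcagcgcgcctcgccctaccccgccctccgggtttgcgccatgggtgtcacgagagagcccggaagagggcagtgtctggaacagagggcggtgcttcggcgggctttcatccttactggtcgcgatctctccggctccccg
Acsl3: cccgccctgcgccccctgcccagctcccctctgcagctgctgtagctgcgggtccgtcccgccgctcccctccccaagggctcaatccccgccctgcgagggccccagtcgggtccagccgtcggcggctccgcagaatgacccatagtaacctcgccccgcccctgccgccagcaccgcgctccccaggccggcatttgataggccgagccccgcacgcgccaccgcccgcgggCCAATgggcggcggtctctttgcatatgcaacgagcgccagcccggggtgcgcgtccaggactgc

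Counted from the start site, TGACG began at -88 and CCAAT at -70 in Gch1, TGACG at -119 in Acsl4 and CCAAT at -15 in Acsl3, and Sat1 held no match. Of 32851 mouse promoters of this length, 20.8% held TGACG and 37.4% held CCAAT. The core of the antioxidant response element, TGACNNNGC, which 12.4% of all promoters held, and the AP-1 site TGANTCA, which 7.81% held, were in 0 of the 10 windows found for the 8 genes. These windows cover 7 of the genes, with Dhodh not matched. A match describes the letters only and is not evidence of binding.

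When levels were divided by the exon length of each gene (GENCODE M21, GRCm38), the order was the same in the 3 control groups. In the batch 1 controls the mean was 97.0 RPKM (CPM per kilobase of exon) for Gpx4, 54 for Sat1, 39.5 for Acsl3, 19.4 for Lpcat3, 12.5 for Acsl4, 6.60 for Aifm2, 1.91 for Dhodh and 1.08 RPKM for Gch1. Gpx4 stood well above the rest, and the 2 genes of the mitochondrial and the tetrahydrobiopterin systems were the lowest. Neighbours in this order overlapped in some groups: the batch 1 control libraries reached from 33.4 to 45.9 RPKM for Acsl3 and from 45.8 to 69.6 RPKM for Sat1. Dhodh (1.45 to 2.55 RPKM) and Gch1 (0.713 to 1.39 RPKM) did not overlap in those libraries, and did in the 48 h controls. Lpcat3 was the steadiest of the genes, with a median coefficient of variation of 7.83% over the 18 groups, and Gch1 the most variable, with 20.9%.

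Of the 8 genes, 3 share exon sequence with a neighbour in the annotation. Aifm2 overlaps H2afy2 and Lpcat3 overlaps Emg1 on the opposite strand, and Acsl3 overlaps Utp14b on the same strand. Reads from these pairs may not always have been told apart in the counting, which for the opposite strands depends on a strand setting that is not given. The annotation also lists a pseudogene of Gpx4.

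Heme-albumin raised Gch1 and lowered Acsl3 and Sat1, and no difference was called for Gpx4, Acsl4, Aifm2, Lpcat3 or Dhodh at any dose. The 3 genes were called at 200 μM and again at 400 μM, in each case 3 of 8 at an adjusted p under 0.05 (quasi-likelihood test of edgeR, adjusted by the Benjamini-Hochberg method over all genes). Over all 15554 genes tested, 13.6% were called at 200 μM and 29% at 400 μM, so that the count at 400 μM was close to the share of all genes. The members' median log2 fold change at 200 μM was -0.07, beside -0.01 for all genes. All 4 doses were compared with the same 10 controls, so the comparisons are not independent of each other.

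Gch1 had 4.46, 7.00 and 8.66 CPM (lowest, median and highest) in the controls, 6.63, 7.80 and 8.98 CPM at 12.5 μM, 6.50, 8.36 and 13.3 CPM at 50 μM, 6.52, 9.25 and 11.7 CPM at 200 μM and 6.09, 11.7 and 19.2 CPM at 400 μM. The median was higher at each dose than at the one before, while every treated group overlapped the controls. The mean was 6.78 ± 1.49 CPM in controls and 11.4 ± 3.69 CPM at 400 μM (SD, n = 10 each). The log2 fold change was thus 0.75 (SE, the standard error, 0.14, adjusted p = 2.48e-05 in edgeR), or 1.68-fold, and at 200 μM the value was 0.42 (SE 0.14, adjusted p = 0.0322). The value of 0.34 at 50 μM did not pass the test (adjusted p = 0.338), nor did that of 0.20 at 12.5 μM (adjusted p = 0.644). The difference between 400 and 200 μM was 0.33 (95% interval 0.06 to 0.59) and did not pass the adjusted test either (adjusted p = 0.294).

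Acsl3, the synthetase for monounsaturated fatty acids, moved the other way. Its libraries reached 145, 173 and 200 CPM (lowest, median and highest) in controls, 127, 148 and 172 CPM at 12.5 μM, 119, 140 and 187 CPM at 50 μM, 109, 140 and 190 CPM at 200 μM and 101, 137 and 142 CPM at 400 μM. All 10 libraries at 400 μM lay below all 10 controls. The log2 fold change was -0.33 at 200 μM (SE 0.07, adjusted p = 0.00131 in edgeR) and -0.40 at 400 μM (adjusted p = 2.6e-05). Replicate 8 at 200 μM, with 190 CPM, stood apart from the other 9 libraries, of which the next had 144 CPM.

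Sat1 fell from 127, 138 and 193 CPM (lowest, median and highest) in controls to 98.4, 124 and 143 CPM at 200 μM and 93.9, 120 and 133 CPM at 400 μM. The groups overlapped at both doses. The log2 fold change was -0.28 at 200 μM (adjusted p = 0.00795 in edgeR) and -0.36 at 400 μM (adjusted p = 0.000175). Sat1, Acsl3 and Gch1 were called in all 10 alternative settings tried at 200 μM and all 8 at 400 μM.

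**Figure D1:**
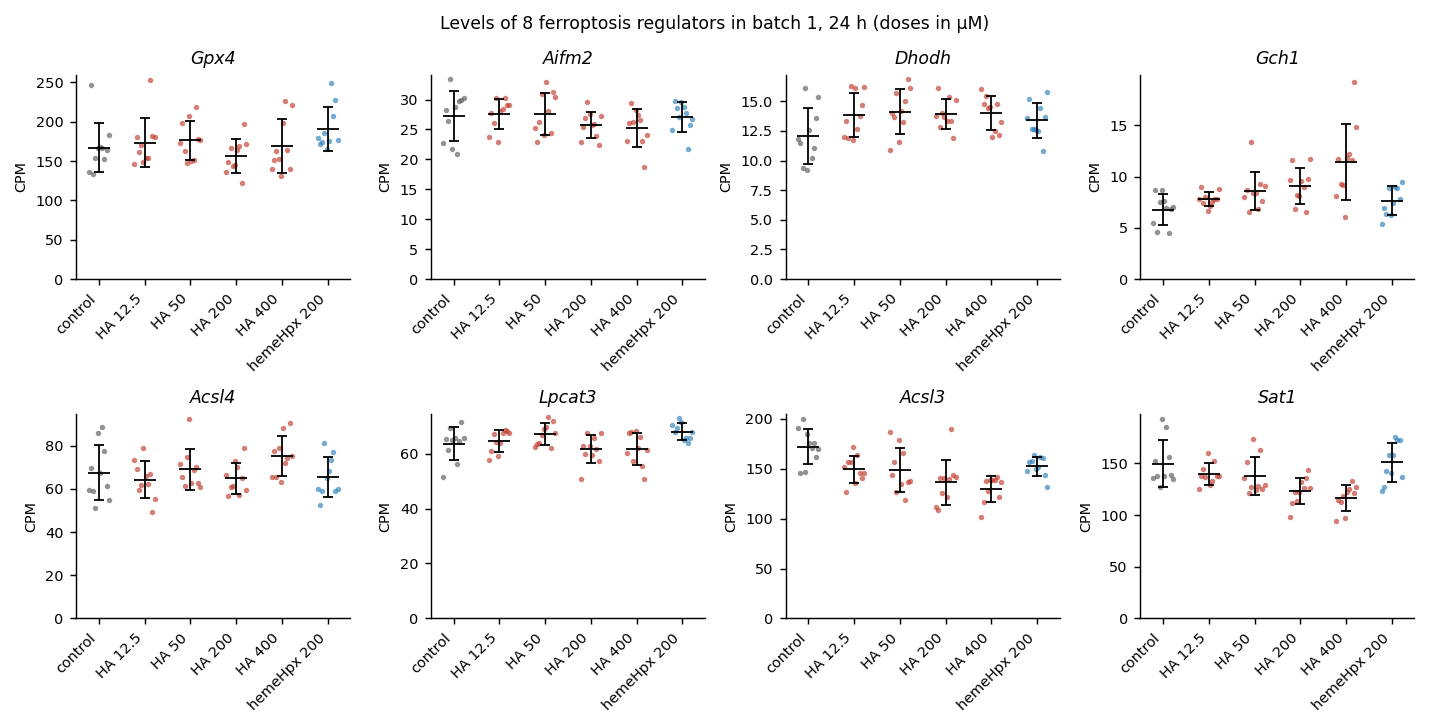
Level in CPM (vertical axis) of the 8 genes in the 60 libraries of batch 1 at 24 h, 1 panel a gene and 1 point a library, with the mean and SD of each group. Gch1 climbs to a mean of 11.4 CPM at 400 μM heme-albumin, and the 10 libraries of Acsl3 at that dose lie below all controls.

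For Gpx4 the controls held 134, 165 and 246 CPM (lowest, median and highest), the 200 μM libraries 122, 156 and 197 CPM and the 400 μM libraries 131, 158 and 226 CPM. The log2 fold changes were -0.10 (adjusted p = 0.594) and 0.01 (adjusted p = 0.950 in edgeR). These groups covered nearly the same range. Acsl4 had higher values at 400 μM that overlapped the controls, with 51.2, 64.5 and 88.7 CPM in controls and 63.4, 74.8 and 90.5 CPM at 400 μM (log2 fold change 0.16, adjusted p = 0.185). Dhodh had 9.19, 11.7 and 16.1 CPM in controls and 11.9, 13.7 and 16.1 CPM at 200 μM. Its log2 fold change of 0.20 at 200 and at 400 μM did not pass the test (adjusted p = 0.111 and 0.0637), although it did at 400 μM with the library code as a block (0.21, adjusted p = 0.0342). Aifm2 and Lpcat3 had log2 fold changes from -0.11 to 0.08 over the 4 doses. After correction for GC content and length, the count at 400 μM was 6 of 8, beside 32.4% of all genes in that setting, with Acsl4 (0.25, adjusted p = 0.0304) and Dhodh higher and Aifm2 lower among those called.

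At the lower doses edgeR called 0 of 8 genes, where 0.045% of all genes were called at 12.5 μM and 0.463% at 50 μM, and DESeq2 called 0 as well. At an unadjusted p under 0.05 there were 2 genes at 12.5 μM and 3 at 50 μM. Acsl3 had a log2 fold change of -0.20 and -0.21 at these doses, and Dhodh of 0.19 and 0.22. Between neighbouring doses, 0 of 8 were called by edgeR and by DESeq2, for 200 against 50 μM (0.797% of all genes) and for 400 against 200 μM (1.27%), and 2 of 8 had an unadjusted p under 0.05 in each.

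Cell type markers moved in the same libraries. Of 10 microglial markers, 7 were lower at 200 μM and 4 at 400 μM, with medians over the list of -0.82 and -0.62, and none was at 0. Their summed level was 757, 1370 and 3032 CPM (lowest, median and highest) in controls, 575, 984 and 1361 CPM at 200 μM and 591, 1044 and 1764 CPM at 400 μM. Astrocyte markers were lower for 4 of 10 genes at 200 μM and 7 of 10 at 400 μM, and their sum went from 8498, 11575 and 12678 CPM in controls to 6957, 8702 and 11527 CPM and 5988, 8064 and 10062 CPM. At 200 μM, 2 of 6 border macrophage, 1 of 8 endothelial and 1 of 7 mural and fibroblast markers were lower as well, 1 of 10 neuronal and 1 of 6 oligodendrocyte precursor markers were higher, and 0 of 10 oligodendrocyte markers were called in edgeR. The part of these shifts in the levels of Gch1, Acsl3 and Sat1 was not tested.

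With hemeHpx, in which hemopexin takes the place of albumin as the carrier of heme, edgeR and DESeq2 called 0 of the 8 genes against control, and 8.2% of all genes were called. Acsl3 alone passed an unadjusted p under 0.05, with 132, 154 and 163 CPM (lowest, median and highest) against 145, 173 and 200 CPM in controls and a log2 fold change of -0.17 (adjusted p = 0.104). Gpx4 had 165, 178 and 249 CPM with hemeHpx and a log2 fold change of 0.19 (adjusted p = 0.187). Leaving out control replicate 2, the library with the highest Gpx4 level of its group, made this 0.27 (adjusted p = 0.0420), and Acsl3 was then called too (-0.20, adjusted p = 0.0496), so that 2 of 8 genes were called beside 22.3% of all genes. The correction for GC content and length took Gpx4 to -0.02 (adjusted p = 0.916), with 0 of 8 genes and 0.707% of all genes called.

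Set directly against heme-albumin at the same 200 μM, hemeHpx libraries had more Sat1, Gpx4 and Lpcat3. These were 3 of the 8 genes, in a comparison in which 25.9% of all genes were called. Sat1 stood at 124, 150 and 176 CPM (lowest, median and highest) with hemeHpx and 98.4, 124 and 143 CPM with heme-albumin. The groups overlapped, and the log2 difference of 0.29 (adjusted p = 0.00436 in edgeR) was called in all 10 alternative settings. Gpx4 was higher by 0.29 (SE 0.10, adjusted p = 0.0332) and Lpcat3, with 63.9, 68.0 and 73 CPM against 50.6, 62.2 and 67.4 CPM, by 0.14 (adjusted p = 0.0291). Without heme-albumin replicate 8 these became 0.25 (adjusted p = 0.0804) for Gpx4 and 0.14 (adjusted p = 0.0506) for Lpcat3, and neither was called without the filter on low counts. The GC correction took Gpx4 to 0.15 (adjusted p = 0.137) and Lpcat3 to 0.11 (adjusted p = 0.0620), and Lpcat3 was not called with the letter of the library name as a term either (adjusted p = 0.0605).

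Gch1 and Acsl3, raised and lowered by heme-albumin, lay between control and heme-albumin with hemeHpx. Gch1 was at 5.35, 7.59 and 9.47 CPM, a log2 difference of -0.26 from heme-albumin with a 95% interval from -0.52 to 0.01 (adjusted p = 0.148). For Acsl3 the log2 difference was 0.16 (adjusted p = 0.101). Neither passed the test, although Acsl3 did without heme-albumin replicate 8 (0.22, adjusted p = 0.0233) and with the GC correction (0.23, adjusted p = 0.00374). In the same comparison 8 of 10 microglial markers and 5 of 10 astrocyte markers were higher with hemeHpx, the microglial sum being 960, 1707 and 2431 CPM, and their part in the differences was not tested.

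**Figure D2:**
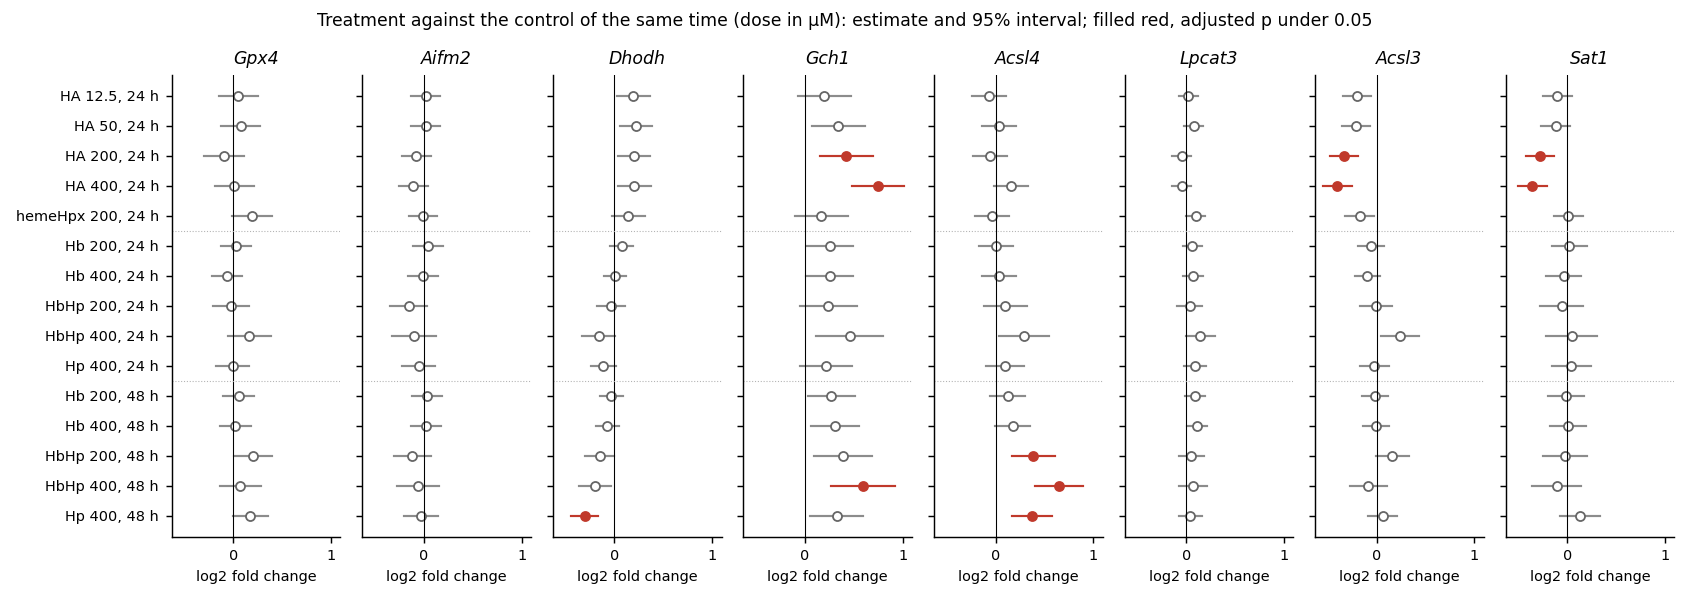
Log2 fold change against the matching control (horizontal axis) for each of the 8 genes in 15 comparisons, with 95% intervals, where filled red points have an adjusted p under 0.05. Acsl3, Sat1 and Gch1 are red with heme-albumin at 200 and 400 μM, Acsl4 with HbHp and Hp alone at 48 h, Gch1 with 400 μM HbHp and Dhodh with Hp alone at 48 h.

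Free Hb left the 8 genes without a called difference at either dose or time. EdgeR and DESeq2 called 0 of 8 genes against control in each of the 4 comparisons, in which 0.0971% of all 16473 genes were called for 200 μM at 24 h, 0.522% for 400 μM at 24 h, 0.310% for 200 μM at 48 h and 0.601% for 400 μM at 48 h. At an unadjusted p under 0.05 there was 1 gene in each of the first 3 and there were 2 in the last. Gch1 had log2 fold changes of 0.25 at 24 h and 0.27 at 48 h with 200 μM and of 0.25 and 0.31 with 400 μM (adjusted p from 0.452 to 1 in edgeR). Its libraries reached 6.94, 9.06 and 12.6 CPM (lowest, median and highest) with 400 μM at 48 h and 4.05, 7.48 and 12 CPM in the controls, and the groups overlapped. Gpx4, Aifm2, Dhodh, Acsl4, Lpcat3, Acsl3 and Sat1 had log2 fold changes between -0.09 and 0.18 in the 4 comparisons.

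HbHp, the same hemoglobin bound to haptoglobin, raised Acsl4 at 48 h at both doses and Gch1 at 48 h at 400 μM. Of these calls, only that of Acsl4 at 400 μM was made in every alternative setting. Acsl4 was also called as higher with 400 μM Hp alone at 48 h (0.38, adjusted p = 0.0113 in edgeR). Its difference between HbHp and Hp at that dose and time was not called (0.27, adjusted p = 0.193). With 200 μM, 1 of 8 genes was called at 48 h, beside 11.9% of all genes, and with 400 μM 2 of 8, again beside 11.9%. These shares are of the same order as those of all genes, so the counts themselves do not set the genes apart. At 24 h edgeR and DESeq2 called 0 of 8 genes with 200 μM (1.93% of all genes, with 0 of 8 at an unadjusted p under 0.05) and 0 with 400 μM (5.15%, with 3 of 8).

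Acsl4, which primes polyunsaturated fatty acids for membrane phospholipids, had 66.1, 75.4, 92.3, 90.2 and 73.4 CPM in the 5 libraries with 400 μM HbHp at 48 h. The 9 controls reached 43.1, 54.5 and 76 CPM (lowest, median and highest), and the 8 libraries with 200 μM HbHp 49.5, 68.0 and 81.8 CPM. At 400 μM the 2 highest HbHp libraries lay well above the highest control, while the other 3 lay within the control range. The log2 fold change at 400 μM was 0.65 (SE 0.13, adjusted p = 9.99e-05 in edgeR), or 1.57-fold. It was called in all 19 alternative settings tried, with values from 0.48 to 0.78, including those within E2 and within batch 3 alone. These 2 settings hold few controls at 48 h. The 2 controls of E2 had 50.3 and 76 CPM, the higher of them within the range of the HbHp libraries.

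At 200 μM the change of Acsl4 was 0.39 (SE 0.11, adjusted p = 0.0154). It was called in 9 of 16 alternative settings and was lost in the other 7. These were within E2 (0.32, adjusted p = 0.227), within batch 3 (0.30, adjusted p = 0.336), with the GC correction (0.24, adjusted p = 0.238), without HbHp replicate 1 (0.33, adjusted p = 0.0560), with only the 200 μM and control groups (0.26, adjusted p = 0.194), without batch and experiment terms (0.22, adjusted p = 0.0895) and with the title number as a block (0.48, adjusted p = 0.146). At 24 h Acsl4 had 71.4, 59.8, 70.7 and 51.8 CPM with 400 μM HbHp and 46, 59.1 and 71.1 CPM in controls (log2 fold change 0.29, adjusted p = 0.204). The effect at 48 h minus that at 24 h was 0.28 for 200 μM and 0.35 for 400 μM HbHp, and neither passed the test of the difference (adjusted p = 0.458 and 0.747). In 5 such tests edgeR and DESeq2 called 0 of 8 genes, beside 0% of all genes for Hb at either dose and for Hp, 0.0121% for 200 μM HbHp and 0.0304% for 400 μM HbHp, and at an unadjusted p under 0.05 there were 0, 0, 2, 1 and 2 of the 8.

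Gch1 had 11, 15.6, 15.0, 13.9 and 14 CPM with 400 μM HbHp at 48 h, and 10.4, 11.6 and 16.7 CPM (lowest, median and highest) with 200 μM. The controls at 48 h fell apart by experiment, with 4.05 to 9.44 CPM in the 7 libraries of E1 and 11 and 12 CPM in the 2 of E2. With 400 μM, 4 of the 5 libraries lay above every control. In the model with batch and experiment the log2 fold change at 400 μM was 0.59 (SE 0.17, adjusted p = 0.00988), or 1.51-fold, and at 200 μM it was 0.39 (adjusted p = 0.0756). Within E2 alone the value at 400 μM was 0.25 (adjusted p = 0.562), and within batch 3 alone 0.36 (adjusted p = 0.414). Gch1 at 400 μM was not called with the title number as a block either. At 24 h, 400 μM HbHp gave 14.7, 9.41, 10.4 and 7.04 CPM beside 5.31, 5.77 and 8.37 CPM in controls, a log2 fold change of 0.46 (adjusted p = 0.122).

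Gpx4 was at 231, 253 and 280 CPM with 200 μM HbHp at 24 h and at 325, 275, 288 and 262 CPM with 400 μM, and the controls at 24 h reached 171, 210 and 266 CPM. At 48 h the levels were 237, 270 and 445 CPM with 200 μM, 274, 239, 298, 268 and 250 CPM with 400 μM, and 172, 191 and 262 CPM in controls. HbHp libraries thus lay mostly above the controls, but controls of E2 (227 to 266 CPM at 24 h) lay mostly above those of E1 (171 to 231 CPM) as well. With the experiment in the model the log2 fold change at 48 h was 0.20 at 200 μM (adjusted p = 0.178) and 0.07 at 400 μM (adjusted p = 0.739). Without either term 3 of 8 genes were called at 48 h with 200 μM, beside 31.3% of all genes, and 5 of 8 with 400 μM, beside 26.1%. Gpx4 was among them at both doses (0.52 and 0.39).

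**Figure D3:**
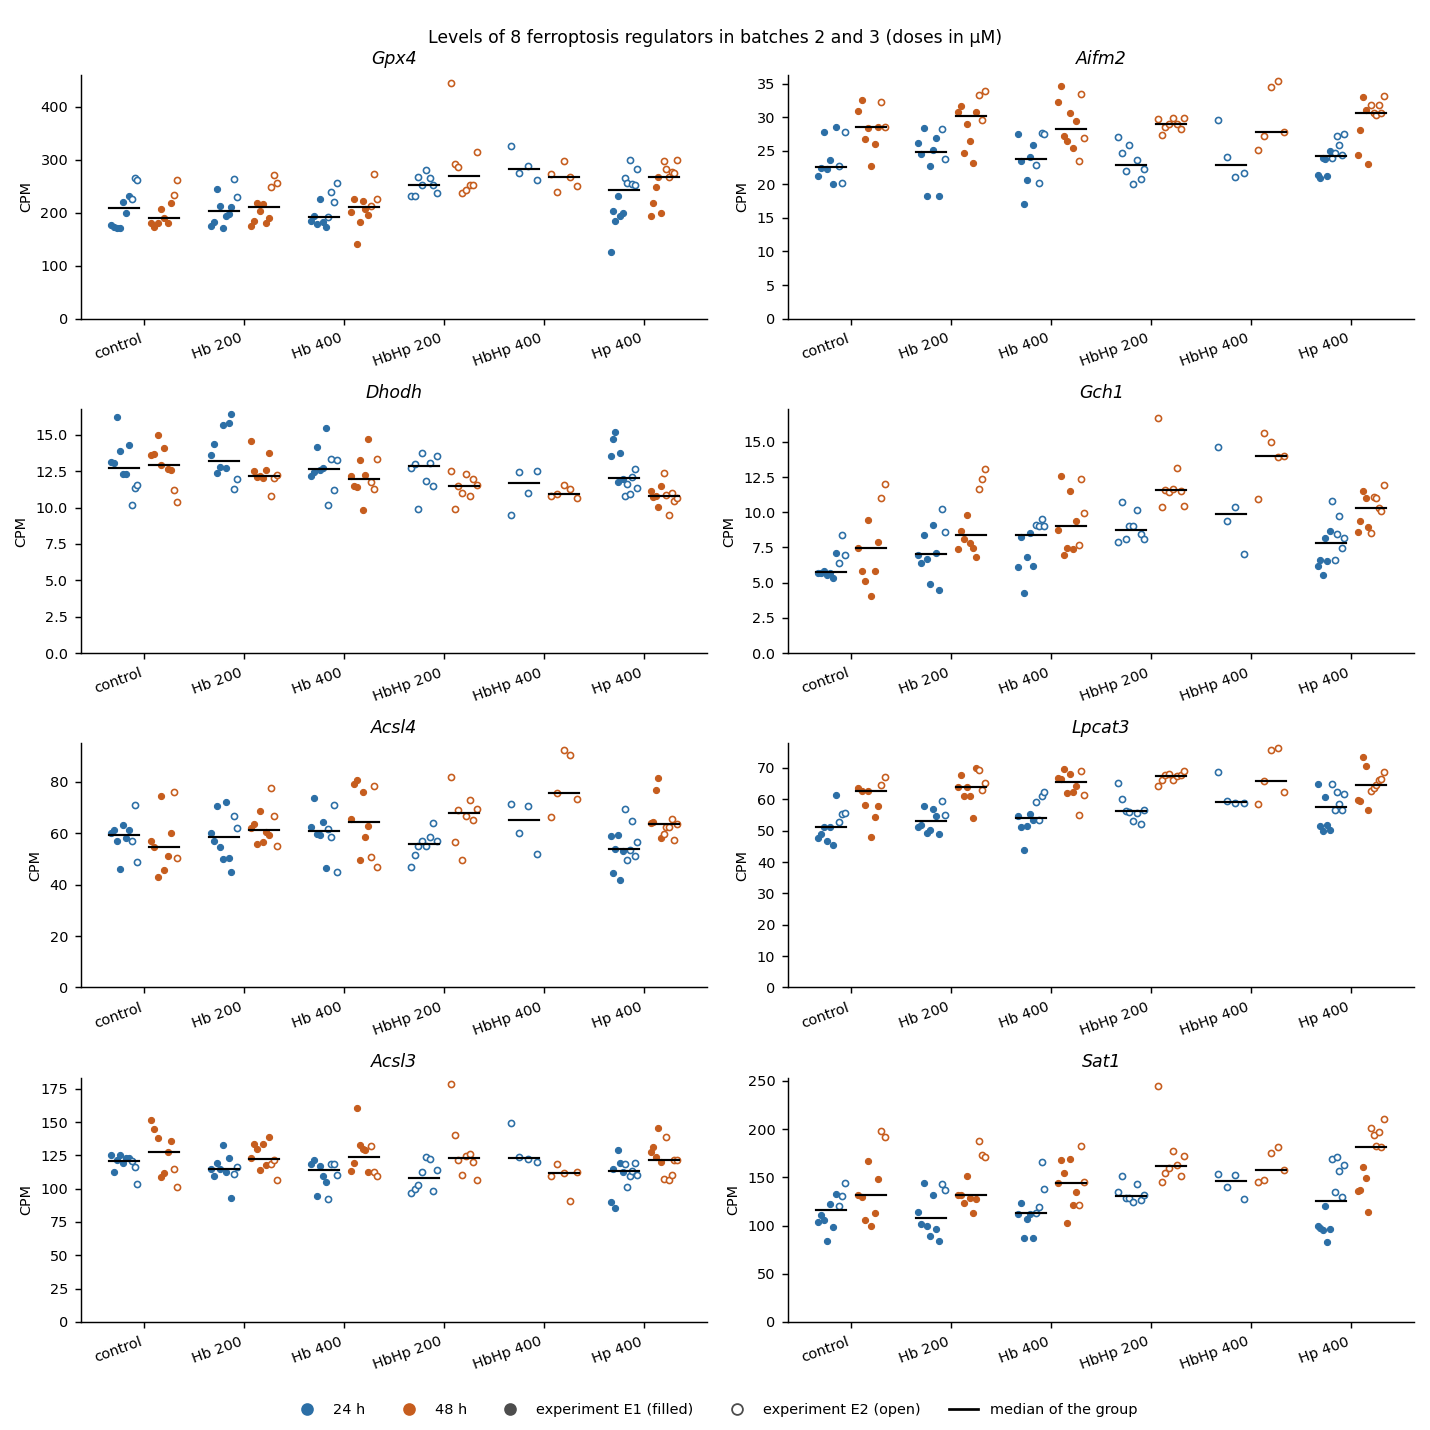
Level in CPM (vertical axis) of the 8 genes in the labelled libraries of batches 2 and 3, 1 point a library, blue for 24 h and orange for 48 h, filled for experiment E1 and open for E2, with a line at the median of each group. Among the groups shown, the medians of Gch1 and Acsl4 are highest with 400 μM HbHp at 48 h. With 200 μM HbHp at 48 h the Gch1 median is 11.6 CPM, beside 11.5 CPM in the 2 controls of E2 at 48 h. For Acsl4 these medians are 68.0 and 63.1 CPM. The open points of the controls lie mostly above the filled ones for Gpx4, Sat1 and Gch1.

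Between HbHp and free Hb at matched doses and times, few of the 8 genes differed. At 200 μM edgeR and DESeq2 called 0 of 8 genes at 24 h (0.607% of all genes, with 1 of 8 at an unadjusted p under 0.05) and 0 at 48 h (4.98%, with 2 of 8). At 400 μM, 1 of 8 was called at each time, beside 2.21% of all genes at 24 h and 4.28% at 48 h. At 24 h this was Acsl3, with 149, 123, 123 and 120 CPM for HbHp and 92.0, 114 and 122 CPM (lowest, median and highest) for Hb, a log2 difference of 0.33 (adjusted p = 0.0472) that was called in 5 of 16 alternative settings. It was lost without any 1 of the HbHp replicates 1, 2 and 3. At 48 h it was Acsl4, higher by 0.47 with HbHp (SE 0.12, adjusted p = 0.0145), against 47, 64.1 and 80.7 CPM for Hb. This was called in 11 of 17 alternative settings and lost without HbHp replicate 3 or 4, within batch 3, with the GC correction, without batch and experiment terms and with the title number as a block. Gpx4 did not overlap between HbHp (262 to 325 CPM) and Hb (173 to 257 CPM) at 400 μM and 24 h, yet the log2 difference of 0.23 was not called (adjusted p = 0.295). Aifm2, Dhodh, Lpcat3, Sat1 and Gch1 differed by -0.20 to 0.28 over the 4 comparisons. The share of all genes called at 400 μM also moved when single HbHp libraries were left out. At 24 h it ran from 0.222% (without replicate 1) to 5.52% (without replicate 4). At 48 h it ran from 1.89% (without replicate 4) to 4.81% (without replicate 2).

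With Hp alone, Acsl4 was called as higher and Dhodh as lower at 48 h. At 24 h, edgeR and DESeq2 called 0 of 8 with 400 μM Hp against control (0.704% of all genes, with 0 of 8 at an unadjusted p under 0.05). At 48 h, 2 of 8 were called, beside 10.8% of all genes. Acsl4 had 57.4, 63.5 and 81.5 CPM (lowest, median and highest) and a log2 fold change of 0.38 (SE 0.10, adjusted p = 0.0113), and Dhodh had 9.47, 10.8 and 12.4 CPM against 10.4, 12.9 and 15.0 CPM in controls, a log2 fold change of -0.31 (SE 0.07, adjusted p = 0.00217). Both genes overlapped the controls. With the GC correction Acsl4 was at 0.29 and no longer called (adjusted p = 0.0643), while Gpx4 was. Within E2 alone 0 of 8 genes and 0.0304% of all genes were called, with Acsl4 at 0.22 and Dhodh at -0.07, and within batch 3 alone 0 genes were, with 0.24 and -0.08. Acsl4 was not called without batch and experiment terms either (0.19, adjusted p = 0.148), nor with the title number as a block (0.42, adjusted p = 0.0909). Dhodh was also not called with the title number as a block. HbHp and Hp at 400 μM, set against each other, gave 0 of 8 calls by edgeR and by DESeq2 at 24 h (0.619% of all genes) and at 48 h (1.44%), with 1 and 2 of 8 at an unadjusted p under 0.05, and Acsl4 differed by 0.27 at 48 h (adjusted p = 0.193). HbHp, Hb and Hp share their controls, so that their values against control move together with those libraries.

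Of 10 microglial markers edgeR called 0 with HbHp at 200 μM and 48 h, with a median of -0.37 over the list, and 1 was lower at 400 μM. Their sum reached 837, 2280 and 5631 CPM in the 48 h controls, 2673, 3394 and 4344 CPM with 200 μM HbHp and 1870, 3126 and 4910 CPM with 400 μM. Unlike the tests, marker sums were not adjusted for batch or experiment. HbHp libraries were all from E2, where most microglial markers were higher, and most controls were from E1, so the sums do not compare like libraries. Other cell type markers were called at 200 μM, with the astrocyte gene Aldh1l1 lower (-0.70, adjusted p = 0.0456) and the endothelial gene Esam (0.84, adjusted p = 0.00888) and the border macrophage gene Pf4 (0.54, adjusted p = 0.0401) higher, each 1 of its list of 10, 8 and 6. At 400 μM, 2 of 10 astrocyte markers were lower, and the astrocyte sum was 6310, 8372 and 11153 CPM in controls, 6133, 7391 and 10648 CPM with 200 μM and 5027, 6572 and 7434 CPM with 400 μM. With Hp alone at 48 h edgeR called 0 of 10 microglial markers (median 0.04), and their sum was 972, 3933 and 5641 CPM, with a higher median than in the controls and an overlapping range. Of these 11 libraries 6 were from E2, as were 2 of the 9 controls. There 1 of 10 astrocyte and 1 of 10 neuronal markers were lower, and 1 of 6 border macrophage, 1 of 8 endothelial and 2 of 7 mural and fibroblast markers were higher. The part of these markers in the levels of Acsl4, Gch1 and Dhodh was not tested.

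Time in culture and the experiment were themselves associated with the levels. In control slices 3 of 8 genes were higher at 48 h than at 24 h, beside 4.5% of all genes. Lpcat3 went from 45.6, 51.1 and 61.5 CPM (lowest, median and highest) to 47.8, 62.5 and 67.2 CPM (log2 difference 0.22, adjusted p = 0.00737). Aifm2 went from 20.1, 22.6 and 28.5 CPM to 22.7, 28.5 and 32.6 CPM (0.28, adjusted p = 0.0257), and Sat1 from 83.7, 116 and 144 CPM to 99.1, 132 and 198 CPM (0.32, adjusted p = 0.0273). The groups overlapped for each gene. Within E2 (0.876% of all genes) and within batch 3 (0%), which hold few controls, 0 of 8 were called, and the cause was not tested. Over all settings the log2 difference ran from 0.02 to 0.37 for Aifm2, from 0.09 to 0.28 for Lpcat3 and from 0.28 to 0.58 for Sat1. Aifm2 and Sat1 were not called with the batch term alone or with neither term. With the library code as a block Lpcat3 and Sat1 were not called, and with the title number Sat1 was not. Beside these genes, 2 of 10 microglial markers were higher and 5 of 10 oligodendrocyte markers lower at 48 h, and the part of the markers was not tested.

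Between experiments, 6 of 8 genes differed, beside 68% of all genes, which is near the same share. In E2, Sat1 was higher by 0.42 on the log2 scale (adjusted p = 1.09e-12), Gch1 by 0.37 (adjusted p = 2.64e-07) and Gpx4 by 0.35 (adjusted p = 1.66e-12), whereas Dhodh was lower (-0.18, adjusted p = 9.56e-07). In the 48 h controls Sat1 had 99.1 to 167.2 CPM in E1 and 192 and 198 CPM in E2. Of the microglial markers 9 of 10 were higher and 1 lower in E2, and all 10 oligodendrocyte markers were higher. Batch 3 differed from batch 2 for 2 of 8 genes, beside 17.2% of all genes, with Acsl4 lower (-0.25, adjusted p = 0.00398) and Dhodh higher (0.14, adjusted p = 0.0107).

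The letter in the library names, which followed the Y-linked genes in every library, also went with small differences in batches 2 and 3. There 4 of 8 genes were lower in the 54 M libraries than in the 53 F libraries, beside 12.8% of all genes: Aifm2 by -0.16 (adjusted p = 0.000127), Sat1 by -0.14 (adjusted p = 0.00766), Acsl4 by -0.13 (adjusted p = 0.0138) and Lpcat3 by -0.09 (adjusted p = 0.00237). The median of Aifm2 was 24.9 CPM in M and 27.8 CPM in F libraries, and the ranges overlapped widely. In batch 1, with 30 libraries of each letter, edgeR called 0 of 8 (2.67% of all genes), and 2 of 8 had an unadjusted p under 0.05. Whether the difference itself differed between the sets was not tested.

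Other genes of the same pathways, in 10 lists written by hand, were compared with the 8 regulators. The list of cystine import and glutathione, the cosubstrate of Gpx4, holds genes of import and synthesis and also genes of recycling and breakdown such as Chac1. With heme-albumin 7 of 8 of these genes rose at 200 μM (median log2 fold change 0.67) and all 8 at 400 μM (median 0.82). HbHp at 48 h raised 6 of 8 at 200 μM (median 0.57) and 7 of 8 at 400 μM (median 0.65), and Hb at 400 μM and 48 h raised 4 of 8, beside 13.6%, 29%, 11.9%, 11.9% and 0.601% of all genes called in these 5 comparisons. Slc7a11, the cystine transporter, rose by 1.54 with 200 μM heme-albumin (adjusted p = 1.04e-11) and by 1.73 with 200 μM HbHp at 48 h (adjusted p = 1.52e-05). Chac1, which degrades glutathione, rose by 1.37 with heme-albumin, and Gclm, a subunit of the first enzyme of glutathione synthesis, by 1.47 with HbHp. With hemeHpx 6 of the 8 were lower than with heme-albumin, beside 25.9% of all genes called in that comparison. The median of all genes stayed within 0.02 of 0 in these comparisons.

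Iron genes moved in both directions. With 200 μM heme-albumin 6 of 12 rose and 2 fell, and with 200 μM HbHp at 48 h 5 rose and 3 fell, beside 13.6% and 11.9% of all genes. Slc40a1, the iron exporter ferroportin, rose by 2.03 and 1.69, and Hmox1, the heme-degrading enzyme, by 1.32 and 1.22. Ptgs2, a cyclooxygenase often read as a marker of ferroptosis, rose by 1.54 with heme-albumin (adjusted p = 4.93e-05) and by 0.998 with HbHp (adjusted p = 0.00806), while Alox5, a lipoxygenase, fell by 0.39 with heme-albumin. Ptgs2 and Alox5 were the 2 genes called of 6 lipid oxidation enzymes tested with 200 μM heme-albumin. With 200 μM HbHp at 48 h Cyb5r1, of the same list, rose too, by 0.40 (adjusted p = 0.0150 in edgeR).

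The lists closest to single members are read against the 13.6% of all genes called at 200 μM and the 29% at 400 μM, and several of their counts lie near these shares. Of 6 tested genes of tetrahydrobiopterin synthesis and recycling, where Gch1 is the entry enzyme, 0 rose and 2 fell at either dose of heme-albumin, and Pts, the next enzyme, fell by 0.20 at 200 μM. Of 8 genes of polyunsaturated and monounsaturated fatty acid synthesis, 2 fell at 200 μM and 5 at 400 μM (median -0.32), among them the elongase Elovl5 at 200 μM (-0.22). Of 11 acyl-CoA synthetases and lysophospholipid acyltransferases 1 rose and 2 fell at 200 μM, and Acsl6, a brain synthetase, fell by 0.43. Of 12 glutathione peroxidases and selenocysteine genes 1 rose and 1 fell at 200 μM, with Gpx1 at -0.29 (adjusted p = 0.0102). Of 12 genes of ubiquinone synthesis and quinone reduction 2 rose and 0 fell, Nqo1 by 0.85. The polyamine list, with 1 gene higher and 2 lower of 11, held Sat2 at -0.33. In the pyrimidine list 1 of 8 rose and 0 fell, Ctps by 0.30.

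With 200 μM HbHp at 48 h, beside 11.9% of all genes called, most of these lists had 0 or 1 called gene. In the ubiquinone and quinone list 1 of 12 rose and 0 fell, and this was Nqo1, a quinone reductase, by 1.87 (adjusted p = 3.39e-09). Of the glutathione peroxidase and selenocysteine genes 1 rose and 2 fell, the latter being Gpx7 (-0.36) and Eefsec, the elongation factor for selenocysteine (-0.21). Among the acyl-CoA synthetases and acyltransferases 1 of 11 fell, Lpcat1, by 0.38. Of the fatty acid synthesis genes 1 of 8 fell, the lipid-synthesis regulator Srebf1, by 0.43, and of the pyrimidine genes 1 of 8, Dctd, by 0.57. Of the tetrahydrobiopterin and polyamine genes edgeR called 0 of 6 and 0 of 11, with median log2 fold changes of -0.05 and 0.03. With Hp alone at 48 h, where Dhodh was called as lower, 0 of the 8 pyrimidine genes rose and 4 fell, beside 10.8% of all genes. Dhodh was not called there within E2 or within batch 3 alone, where 0.0304% and 0% of all genes were called.

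**Figure D4:**
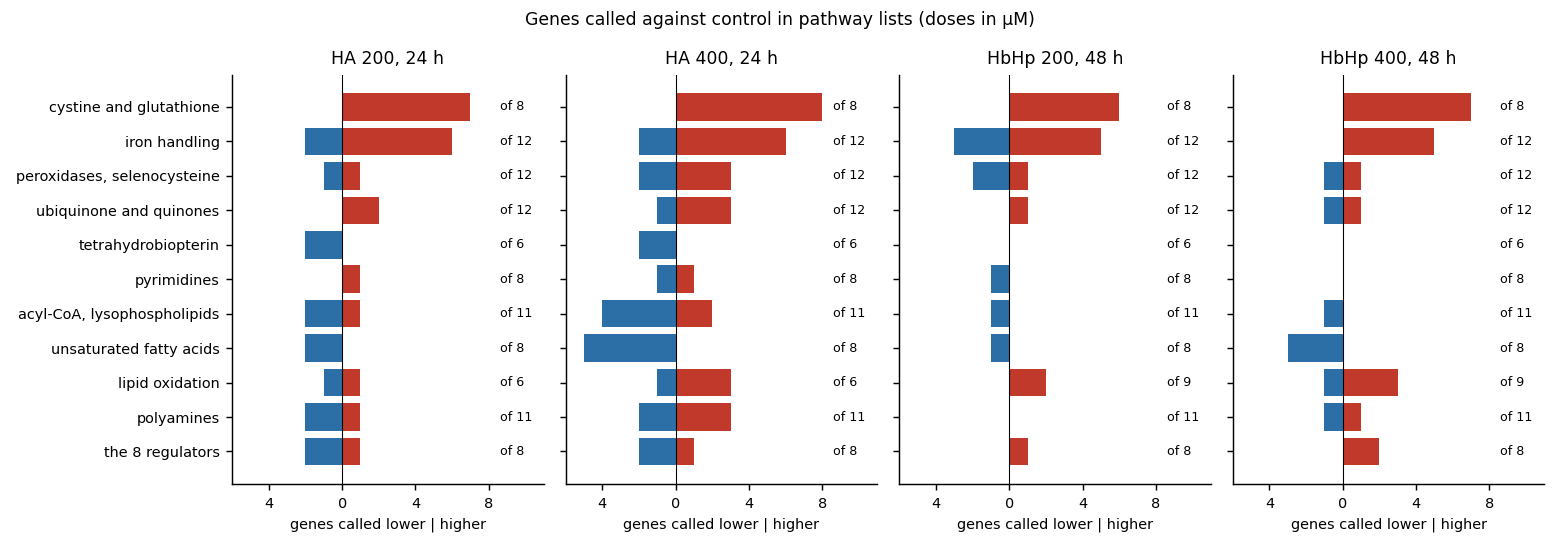
Number of genes (horizontal axis) higher and lower at an adjusted p under 0.05 in 10 pathway lists and among the 8 regulators, for heme-albumin at 200 and 400 μM and HbHp at 200 and 400 μM for 48 h against control. The cystine and glutathione list has 7 of 8 genes higher at 200 μM heme-albumin, where the regulators have 1 higher and 2 lower.

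The genes whose levels most resembled those of each regulator were ranked by the smaller of the Pearson correlations across the 60 libraries of batch 1 and across the labelled libraries of batches 2 and 3, after removal of batch and experiment, over 13886 genes. These correlations are descriptions, since the libraries share treatments, depth and cell makeup. For Sat1 they were Arpc3 (r = 0.90 and 0.89) and Rnase4 (0.88 and 0.91), and for Acsl4 Ell2 (0.82 and 0.81) and Eea1 (0.81 and 0.88). Gpx4 was nearest to Sdf4 and Gnptg, Gch1 to Procr and Ndel1, Acsl3 to Ppp1r3c and Acadsb, and Dhodh to Dnph1 and Tbl3. Paqr7 was among the nearest 2 genes for both Aifm2 (with B4galt5) and Lpcat3 (with Plin3).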

How the data were processed

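The authors deposited, for each of 188 libraries, raw read counts by Ensembl identifier. The submitters' notes name featureCounts and GRCm39, and the aligner, annotation and strand setting are not given in the sources used here. From these counts, levels were computed as CPM on TMM-scaled library sizes. Differences were tested with edgeR 4.0.16 (R 4.3.3, limma 3.58.1; quasi-likelihood, filterByExpr with a smallest count of 10 and total of 15, Benjamini-Hochberg adjustment at 0.05). One model covered the 60 libraries of batch 1 (15554 genes), another the labelled libraries of batches 2 and 3 with batch and experiment terms (16473 genes). The model was tested on simulated data. No 2 replicates were alike within sampling noise. Alternatives were DESeq2 1.42.0, RLE scaling, no filter or a stricter one, other terms, single batches or experiments, replicate blocks, a correction for GC content and length, and leaving libraries out. Comparisons between neighbouring doses and between batches were chosen once the data had been examined. The 8 genes and the hand-written lists were chosen with earlier results of these data known. All 8 genes are counted in every comparison, and those called or described are named; from each list at most the 2 largest called changes for 200 μM heme-albumin and for 200 μM HbHp at 48 h, and for each regulator the 2 most similar genes. RPKM values use exon lengths of GRCm38, and 21 libraries without a clear group were left out.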

Additional observations from a re-analysis of the deposited data

Results flagged for a closer look

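Of 128 sets of 4 to 10 libraries, 1 for each gene and group, 12 held a highest library whose gap to the next exceeded, as a share of the range, the limit of Dixon's test at 95%, and chance passes that limit in about 1 in 20 groups.
HbHp replicate 1 at 200 μM and 48 h stood apart for 4 genes, with 445 CPM of Gpx4 (next library 315 CPM), 16.7 CPM of Gch1 (13.1 CPM), 245 CPM of Sat1 (177 CPM) and 179 CPM of Acsl3 (140 CPM). HbHp replicate 1 at 400 μM and 24 h had 68.7 CPM of Lpcat3 (59.6 CPM) and 149 CPM of Acsl3 (123 CPM). Gpx4 was far above the others in batch 1 control replicate 2, with 246 CPM (183 CPM), and in replicate 8 at 12.5 μM heme-albumin, with 254 CPM (183 CPM). At 50 μM heme-albumin, replicate 5 had 92.6 CPM of Acsl4 (74.6 CPM) and replicate 4 had 13.3 CPM of Gch1 (9.26 CPM). The remaining sets were Acsl3 in heme-albumin replicate 8 at 200 μM, with 190 CPM (144 CPM), and in Hb replicate 3 at 400 μM and 48 h, with 160 CPM (133 CPM). The cause was not tested for any of them.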

How the results depend on the processing

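Acsl3, Sat1 and Gch1 with heme-albumin at 200 and 400 μM, Acsl4 with 400 μM HbHp at 48 h and Sat1 between hemeHpx and heme-albumin were called in every setting run, and no called direction reversed. Of 407 counts of called genes over the settings, 355 stayed within 1.5 times the reported count and 52 moved; the cause was not tested. Counts of the 8 genes against control, unless said otherwise, were as follows. With the correction for GC content and length, 6 were called for 400 μM heme-albumin (3 reported), 0 for 200 μM HbHp at 48 h (1), 0 for 400 μM HbHp against Hb at 24 h (1) and 48 h (1), and 0 between batches (2). Without batch and experiment terms, 200 μM HbHp had 1 at 24 h (0) and 3 at 48 h (1), and 1 against Hb at 48 h (0); 400 μM HbHp had 3 at 24 h (0), 5 at 48 h (2) and 2 against Hb at 48 h (1); and 1 was called between control times (3). With the batch term alone, the counts were 4 for 200 μM HbHp at 48 h, 1 for 400 μM at 24 h, 0 for 400 μM against Hb at 24 h, 1 between batches and 1 between control times. Within batch 3, they were 0 for 200 μM HbHp at 48 h, 0 for 400 μM HbHp against Hb at both times, 1 for 400 μM HbHp at 48 h, 0 for Hp at 48 h (2) and 0 between control times. Within E2, they were 0 for 200 μM HbHp at 48 h, 0 for 400 μM against Hb at 24 h, 1 for 400 μM at 48 h, 0 for Hp at 48 h, 1 between batches and 0 between control times. With only the 200 μM and control groups, 200 μM HbHp at 48 h and the batches gave 0 each. Without a filter, 400 μM HbHp against Hb at 24 h gave 0 and hemeHpx against heme-albumin 1 (3). Leaving out single libraries gave 0 to 2 for 200 μM HbHp at 48 h (2 without control replicate 9, 0 without HbHp replicate 1). It gave 0 to 1 for 400 μM HbHp at 24 h (1 without HbHp replicate 4), and 0 to 1 for 400 μM HbHp against Hb at 24 h and at 48 h. For hemeHpx, leaving out control replicate 2 gave 2 (0 reported). Over all genes, the calls for 200 μM HbHp at 48 h ran from 145 to 5150, and those for hemeHpx from 110 (GC correction) to 3659 (block by library code). The runs without HbHp replicate 1, batch 1 control replicate 2 and heme-albumin replicate 8 were chosen after seeing the data.

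The replicate numbers of the titles and the codes of the library names were also tried as a block. Libraries with the same code deviated together only weakly (median correlation 0.19 in batch 1 and 0.061 in batches 2 and 3, with 94 of 169 and 124 of 291 pairs over 0.1, against medians of -0.010 and -0.0050 for different codes, with 517 of 1331 and 1620 of 4926 over 0.1). Pairs with the same code thus passed 0.1 more often than other pairs, but many fell below it, and the main model took no pairing from the codes. In batch 1 every code with the letter M occurs in each group. Some codes occur more than once within a group, so libraries of a group may not all be independent. Whether the same code marks a shared mouse was not tested. With the library code as replicate block, 4 genes were called for 400 μM heme-albumin (3 reported, Dhodh added), 2 for 200 μM HbHp at 48 h, 0 for 400 μM HbHp against Hb at 24 h, 1 between batches and 1 between control times. With the title number as replicate block, the counts were 0 for 200 μM HbHp at 48 h, 0 for 400 μM HbHp against Hb at 24 h and 48 h, 1 for 400 μM HbHp at 48 h, 0 for Hp at 48 h and 0 between batches. Depth limits Gch1 most, with 51 counts in its lowest library.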

Other observations

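The libraries left out of the comparisons include 20 whose tags read HbHpx_400uM, 10 for each time, a label that leaves the scavenger protein open. At 24 h they held 53.2, 65.2 and 82.5 CPM of Acsl4 (lowest, median and highest), 5.82, 9.08 and 11.8 CPM of Gch1 and 194, 213 and 286 CPM of Gpx4. At 48 h the values were 51.3, 71.6 and 89.7 CPM of Acsl4, 7.77, 11.2 and 16.9 CPM of Gch1 and 205, 247 and 315 CPM of Gpx4. Another library, whose tag names no treatment at 24 h, held 62.7 CPM of Acsl4, 8.65 CPM of Gch1 and 260.4 CPM of Gpx4.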
